A study of Mus musculus with 6 samples.

Results

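The transcripts of 9 Toll-like receptors and of Cd14 were followed in sorted, tdTomato-positive cells of bone marrow stromal cell (BMSC) cultures. They were taken from the table by gene symbol, with no measured value in the rule, and make up 10 of the 17469 genes in the deposited table. Tlr1, Tlr2, Tlr4, Tlr6 and Cd14 were taken as the 5 surface members, and Tlr3, Tlr7, Tlr8, Tlr9 and Tlr13 as the 5 endosomal members. The control group held 3 libraries from 6-month-old Ocn-Cre;Ai9 mice, and the TgAPPsweOCN group held 3 libraries from TgAPPswe;Ocn-Cre;Ai9 mice of the same age. Neither group received a treatment. Both carry Cre recombinase under the osteocalcin promoter and the Ai9 reporter, which makes a cell express tdTomato once Cre has acted. In the TgAPPsweOCN mice, the action of Cre also unlocks a transgene for human APPswe, a form of the amyloid precursor protein that bears the Swedish mutation, by taking out a stop cassette. The number of mice behind a library is not given in the sources used here, so the tests measure the spread between these libraries, which may be technical.

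Toll-like receptors are membrane proteins that recognise conserved molecules of microbes and, in some settings, molecules of damaged host cells. Those at the cell surface mainly meet lipids and proteins of the microbial envelope, while those inside endosomes meet nucleic acids that were taken up and partly digested. Ligand binding brings receptor pairs together and recruits adaptor proteins, which lead through kinases to NF-kB and interferon regulatory factors. Macrophages and other myeloid cells carry a broad set of these receptors, and marrow stromal and osteoblast-lineage cells are known to carry some of them.

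The cell type given by the labels was checked with marker genes. Bglap, which encodes osteocalcin itself, had an FPKM (mapped fragments scaled by transcript length and by the fragments of the library) of 0 to 1.25 in the 6 libraries, and the osteoblast transcription factors Runx2 and Sp7 stayed at or below 2.13. The summed FPKM of 12 stromal and osteoblast-lineage markers was 134 to 158 in the control and 100.3 to 177 in the TgAPPsweOCN libraries. The highest by mean FPKM were Col1a1 (45.5 in control and 34.9 in TgAPPsweOCN cells), Col1a2 (53.0 and 42.0) and Cxcl12 (31.7 and 44.8). The sum for 12 myeloid markers was 15937 to 16612 and 11535 to 15514, respectively. Lyz2, with a mean FPKM of 9057 in control and 6977 in TgAPPsweOCN cells (edgeR adjusted p = 0.418), was the largest part of this sum in each library, and the list's median FPKM was 488 to 513 and 488 to 519. Within the myeloid list, Itgam, Adgre1, Fcgr1 and Aif1 rose and Csf1r, Cd68 and Mrc1 fell under the call rule given below. Within the stromal list, the matrix genes Dcn (13 to 22 counts in control, 51 to 406 in TgAPPsweOCN libraries, edgeR adjusted p = 0.00137) and Lum (at most 1 count in control, 28 to 38 in TgAPPsweOCN libraries, edgeR adjusted p = 2.66e-05) rose. Sp7 (log2 fold change -0.78, edgeR adjusted p = 0.00707) and Pdgfrb (-0.55, edgeR adjusted p = 0.00282), a receptor of perivascular and stromal cells, were lower by the adjusted p alone, and Alpl (0.57, edgeR adjusted p = 0.00139), the alkaline phosphatase of osteoblasts, was higher. Of the neutrophil markers, Camp rose (1 to 9 counts and 21 to 54 counts, edgeR adjusted p = 0.00175), while Ly6g had at most 1 count, Mpo reached 334 and Ngp 242 counts, and the list's summed FPKM was 5.18 to 19.4 in control and 4.37 to 20.4 in TgAPPsweOCN libraries. Of the dendritic cell markers, Xcr1 rose from an FPKM of 0.143 ± 0.00577 (SD, n = 3) to 0.457 ± 0.0379 (edgeR adjusted p = 0.000133), and the list's sum was 16.4 to 41.3 and 8.16 to 18.7. The B and T cell list summed to 0.380 to 0.520 in all libraries, with Cd79a and Cd3e at 2 counts or fewer, Ms4a1 at 4 or fewer and Cd8a at 23 to 25. The endothelial list summed to 1.85 to 3.86 in control and 2.01 to 2.33 in TgAPPsweOCN libraries, and Kdr was lower by the adjusted p alone (log2 fold change -0.97, edgeR adjusted p = 0.00113). All 4 Y-linked markers were detected in every library, and Eif2s3y was lower by the adjusted p alone (-0.18, edgeR adjusted p = 0.0198). In every library the myeloid sum lay far above the stromal sum. The values below are those of the bulk libraries, and which cells carried the members' transcripts was not tested. In bulk libraries, a change in the share of a cell type and a change in RNA per cell cannot be told apart, and the part of either in the values below was not tested.

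Estimated counts summed to 19340810 to 19801060 in the control and 21677461 to 22037840 in the TgAPPsweOCN libraries. All 10 members passed the filter on low counts, with 585 or more counts in every library. Counts were compared with edgeR's quasi-likelihood test over 12701 genes after TMM scaling, which corrects library totals for a few genes taking up many counts. P-values were adjusted over all genes tested by the Benjamini-Hochberg method. A gene was called up- or down-regulated where the adjusted p did not exceed 0.05 and the log2 fold change, TgAPPsweOCN over control, was at least 1 in size. Of the members, Tlr1 was up-regulated and Tlr13 down-regulated, 1 of 10 in each direction. Of all genes tested, 8.90% were up-regulated (1130) and 9.20% down-regulated (1169), so the members' counts were near the background. Both calls were kept under every alternative in the processing. The FPKM ranges of the 2 genotypes did not overlap for 6 of the 10 members, against 72.3% of all genes tested.

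**Figure D1:**
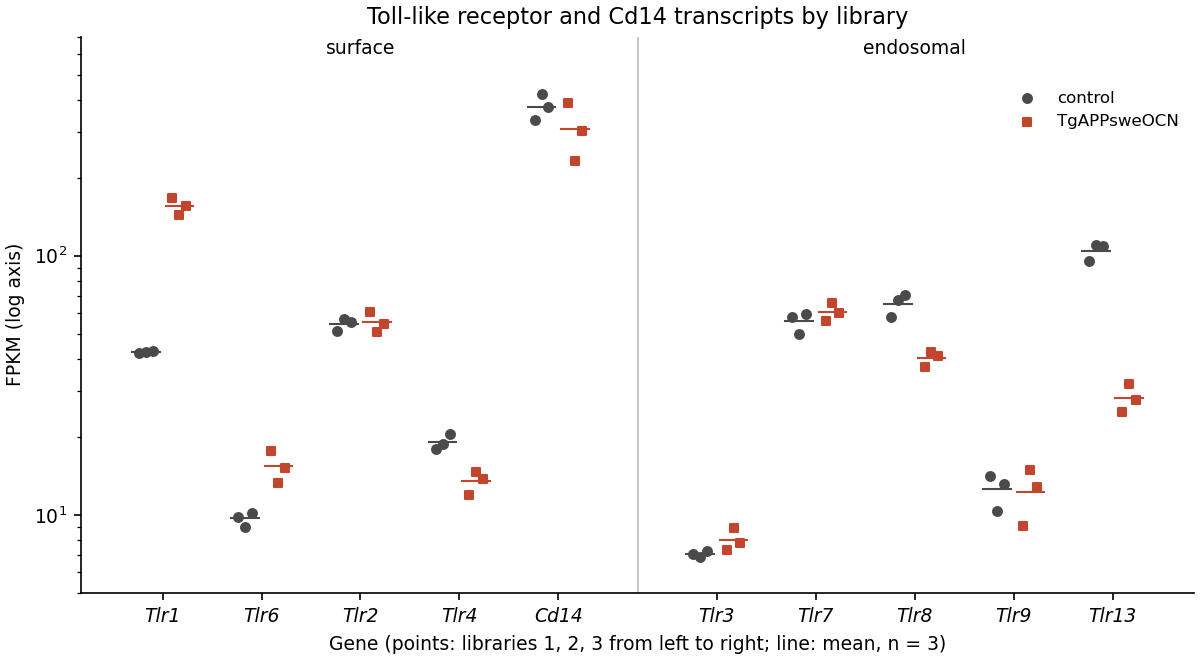
FPKM of the 10 members on a log axis, with a point for each of the 3 control and 3 TgAPPsweOCN libraries and a line at each group's mean. Tlr1 lies at 42.3 to 43.05 in control and 143 to 167 in TgAPPsweOCN libraries, Tlr13 moves from 95.0 to 109.6 down to 24.9 to 32.1, and Cd14 has the highest level of the 10 in both groups.

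In the control libraries, the members' FPKM levels spanned from Tlr3 at the bottom to Cd14 at the top. Cd14 (mean 376 ± 44.8, SD, n = 3) was followed by Tlr13 (104.5 ± 8.23), Tlr8 (65.3 ± 6.56), Tlr7 (55.95 ± 5.18), Tlr2 (54.5 ± 3.04) and Tlr1 (42.6 ± 0.384). Tlr4 (19.1 ± 1.35), Tlr9 (12.6 ± 1.93), Tlr6 (9.68 ± 0.606) and Tlr3 (7.06 ± 0.160) came last. The library ranges of Tlr8 and Tlr7, and of Tlr7 and Tlr2, overlapped, and the other neighbours in this order did not overlap. In the TgAPPsweOCN libraries Tlr1 (155 ± 11.9) moved from sixth to second place, directly below Cd14 (309 ± 79.0), and Tlr13 (28.2 ± 3.63) moved from second to sixth. The order between them was Tlr7 (60.6 ± 5.05), Tlr2 (55.4 ± 5.13) and Tlr8 (40.3 ± 2.73). Below Tlr13 lay Tlr6 (15.4 ± 2.16), Tlr4 (13.5 ± 1.37), Tlr9 (12.2 ± 2.93) and Tlr3 (7.99 ± 0.795), and here the ranges of Tlr7 and Tlr2, of Tlr6 and Tlr4 and of Tlr4 and Tlr9 overlapped. Among all tested genes, the mean FPKM of Tlr1 lay above that of 84.1% of genes in control and 95.98% in TgAPPsweOCN cells. For Tlr13 these shares were 94.1% and 77.2%, and for Cd14 they were 98.5% and 98.0%.

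The genes lie on several chromosomes of the mm10 build (GRCm38), with positions taken from the RefSeq annotation of that build. Tlr1 (Entrez identifier 21897) occupies chr5:64924680-64933600 on the minus strand, and Tlr6 (21899) chr5:64953092-64970942 on the same strand, 19491 bases away. Tlr7 (170743, chrX:167303380-167330574) and Tlr8 (170744, chrX:167241123-167264329) are also neighbours, 39050 bases apart on the minus strand. Tlr13 (279572, chrX:106143275-106160493, plus strand) shares the X chromosome with them. Tlr2 (24088) lies at chr3:83836272-83841824, Tlr4 (21898) at chr4:66827551-66846581, Tlr3 (142980) at chr8:45395665-45411075, Tlr9 (81897) at chr9:106222598-106226876 and Cd14 (12475) at chr18:36725064-36726815. Tlr1 and Tlr6 were both higher in each TgAPPsweOCN library than in each control library, though only Tlr1 passed the fold threshold. The division of reads between these close copies is taken up below. Tlr7 and Tlr8 had fold changes of opposite sign under TMM scaling and with library totals alone.

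Among the surface members, Tlr1 changed most. TLR1 pairs with TLR2 and the pair recognises triacylated lipopeptides of bacteria. Tlr1 FPKM was 42.3, 42.5 and 43.05 in control and 167, 143 and 156 in TgAPPsweOCN libraries. Every TgAPPsweOCN library was at more than 3 times every control library. A two-sided exact permutation test gave p = 0.1, below which 3 libraries against 3 cannot go. The log2 fold change was 2.10 (standard error 0.0766, edgeR adjusted p = 1.82e-07), which is 4.28-fold.

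Tlr6 lies beside Tlr1 and encodes the other partner of TLR2, with which it recognises diacylated lipopeptides. Its FPKM was 9.84, 9.01 and 10.2 in control and 17.6, 13.3 and 15.2 in TgAPPsweOCN libraries. The groups did not overlap, and the adjusted p was met (log2 fold change 0.84, standard error 0.114, edgeR adjusted p = 0.000252), but the change stayed below the fold threshold.

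Tlr1 and Tlr6 are close copies, and this bears on how reads were divided between them. Both had fractional estimated counts in all 6 libraries, which happens when reads match more than 1 transcript, and none of the other 8 members had any. Of the 2976 stretches of 50 bases in the Tlr1 transcript, 454 (15.3%) also occur in Tlr6, and they cover 748 bases, 31.3% of the coding sequence. Aligned from end to end, 74.1% of the Tlr1 coding bases are identical in Tlr6. The longest run of coding sequence without a difference is shown first, since a read inside it cannot be assigned to either gene by sequence. In Tlr1 it lies at chr5:64925537-64925765 (coding bases 1468 to 1696 of 2388, counted from the start codon) and in Tlr6 at chr5:64953828-64954056 (coding bases 1507 to 1735 of 2421), both on the minus strand of mm10 and in coding exon. It is 229 bases long.
Tlr1 and Tlr6, identical run: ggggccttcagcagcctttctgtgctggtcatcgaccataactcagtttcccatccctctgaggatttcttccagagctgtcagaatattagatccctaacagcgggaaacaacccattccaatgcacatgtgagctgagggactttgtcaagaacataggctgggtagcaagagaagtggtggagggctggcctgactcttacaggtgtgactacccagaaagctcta

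A stretch that encodes part of the extracellular domain, where the copies have moved apart, is shown for contrast. Of 60 aligned bases, 32 differ, and these are in capitals.
Tlr1, coding bases 841 to 900: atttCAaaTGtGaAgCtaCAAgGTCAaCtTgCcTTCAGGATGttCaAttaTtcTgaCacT
Tlr6, coding bases 880 to 939: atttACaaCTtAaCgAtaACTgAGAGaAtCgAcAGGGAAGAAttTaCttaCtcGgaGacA
Reads from such stretches can be told apart. With the counts of Tlr1 and Tlr6 added into 1 feature, an alternative chosen after the values were seen, the log2 fold change was 1.91 (standard error 0.0796, edgeR adjusted p = 3.21e-07). This sum does not depend on how reads were divided within the pair. How far the separate value of Tlr6 depends on that division was not tested.

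**Figure D2:**
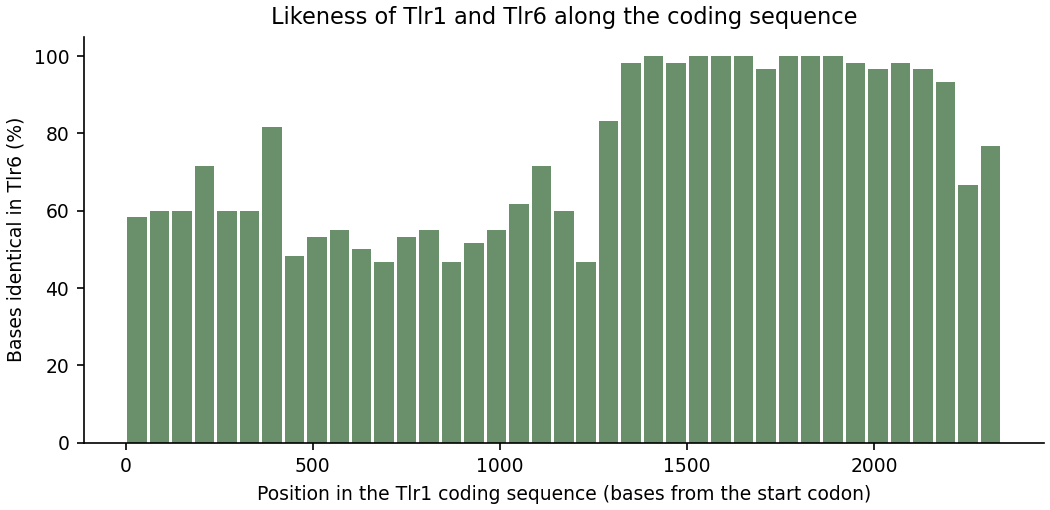
Share of bases identical between the aligned Tlr1 and Tlr6 coding sequences, as bars for blocks of 60 bases along Tlr1, counted from the start codon up to base 2340. Blocks from base 1321 to base 2220 are at least 93.3% identical, and most blocks before base 1260 lie between 46.7% and 71.7%.

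Tlr2 is the shared partner of TLR1 and TLR6. Its FPKM was 51.0, 56.8 and 55.6 in control and 60.9, 50.7 and 54.6 in TgAPPsweOCN libraries, and the groups overlapped. After TMM scaling the log2 fold change was 0.24 (standard error 0.0854, edgeR adjusted p = 0.0349), but with library totals alone it was 0.02 (adjusted p = 0.796). The ratio of Tlr1 to Tlr2 FPKM, which is free of the scaling between libraries, was 0.784 ± 0.0409 (SD, n = 3) in control and 2.81 ± 0.0605 in TgAPPsweOCN cells. Tlr1 was thus the less abundant transcript of the pair in each control library and the more abundant in each TgAPPsweOCN library. The ratio of Tlr6 to Tlr2 was 0.178 ± 0.0176 and 0.277 ± 0.0138, again without overlap.

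Tlr4 and Cd14 belong to the recognition of lipopolysaccharide. TLR4 binds it together with the secreted protein encoded by Ly96, and CD14, which is anchored to the membrane by a lipid or shed, hands it to them. Tlr4 FPKM was 17.95, 18.7 and 20.6 in control and 11.95, 14.6 and 13.8 in TgAPPsweOCN libraries, with each TgAPPsweOCN library below each control library. The log2 fold change of -0.29 (standard error 0.0786, edgeR adjusted p = 0.0109) met the adjusted p alone, and with library totals alone it was -0.50. Cd14 FPKM was 333, 422 and 375 in control and 390, 232 and 303 in TgAPPsweOCN libraries. The groups overlapped and the difference was small against its error (log2 fold change -0.07, standard error 0.180, edgeR adjusted p = 0.766). Its direction turned when the second TgAPPsweOCN library (log2 fold change 0.12) or the second control library (0.02) was left out. Ly96, with a log2 fold change of 0.06 (standard error 0.109, edgeR adjusted p = 0.656), did not pass the test either.

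Among the endosomal members, Tlr13 changed most. TLR13 recognises a stretch of bacterial ribosomal RNA and is found in mice but not in humans. Tlr13 FPKM was 95.0, 109.6 and 109 in control and 24.9, 32.1 and 27.8 in TgAPPsweOCN libraries. It fell by 1.67 on the log2 scale (standard error 0.0929, edgeR adjusted p = 1.47e-06), and control levels were 3.19-fold higher after TMM scaling. Each TgAPPsweOCN library lay below each control library.

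Tlr8 was the only other endosomal member whose FPKM was lower in each TgAPPsweOCN library. TLR8 senses breakdown products of RNA, and its role in mice is less settled than in humans. Tlr8 FPKM was 58.0, 67.3 and 70.7 in control and 37.3, 42.7 and 41.0 in TgAPPsweOCN libraries. The log2 fold change was -0.46 (standard error 0.0871, edgeR adjusted p = 0.00161), below the fold threshold in size, and -0.68 with library totals alone.

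Tlr7, the neighbour of Tlr8 on the X chromosome, encodes a sensor of RNA and RNA breakdown products. Its FPKM was 58.1, 50.04 and 59.7 in control and 55.8, 65.9 and 59.99 in TgAPPsweOCN libraries, so the groups overlapped. TMM scaling gave a log2 fold change of 0.33 (standard error 0.0809, edgeR adjusted p = 0.00656), and library totals alone gave 0.12 (adjusted p = 0.254). Read within each library, the ratio of Tlr7 to Tlr8 FPKM was 1.002, 0.744 and 0.844 in control and 1.495, 1.54 and 1.46 in TgAPPsweOCN cells, without overlap. The ratio of Tlr7 to Tlr13 was 0.539 ± 0.0780 (SD, n = 3) in control and 2.15 ± 0.096 in TgAPPsweOCN cells. Among the X-linked receptors, the leading transcript was therefore Tlr13 in every control library and Tlr7 in every TgAPPsweOCN library.

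Tlr3 and Tlr9 had the lowest mean FPKM of the endosomal members in both groups. TLR3 senses RNA duplexes and signals through the adaptor TRIF rather than MYD88, while TLR9 senses DNA with unmethylated CpG sites. Tlr3 FPKM was 7.07, 6.90 and 7.22 in control and 7.33, 8.87 and 7.76 in TgAPPsweOCN libraries. The groups lay side by side without overlap (log2 fold change 0.39, standard error 0.0735, edgeR adjusted p = 0.00174), and with library totals alone the adjusted p was no longer met (0.17, adjusted p = 0.0870). Tlr9 FPKM was 14.1, 10.4 and 13.2 in control and 9.05, 14.8 and 12.8 in TgAPPsweOCN libraries, with wide overlap. Its log2 fold change of 0.17 (standard error 0.169, edgeR adjusted p = 0.397) changed sign with library totals alone (-0.04).

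**Figure D3:**
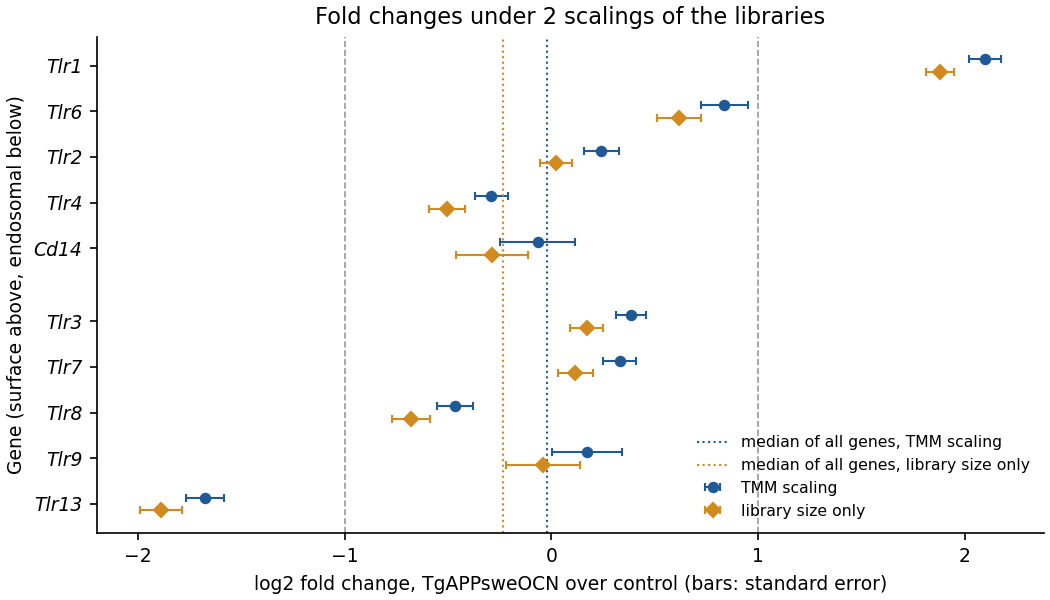
Log2 fold change of each member (TgAPPsweOCN over control, bars for the standard error) after TMM scaling and with library totals alone, with dotted lines at the median of all tested genes and dashed lines at the fold threshold. The 2 scalings move every member by a similar amount, and Tlr1 (2.10 and 1.88) and Tlr13 (-1.67 and -1.89) lie beyond the threshold under both.

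The scaling decided whether Tlr2, Tlr3 and Tlr7 met the adjusted p, and changed neither of the 2 calls. Over all tested genes the median log2 fold change was -0.02 after TMM scaling and -0.23 with library totals alone. Measured from that median, Tlr1 stood at 2.12 under both scalings, Tlr6 at 0.86 and 0.85, Tlr3 at 0.41 under both, and Tlr13 at -1.66 and -1.65. By the adjusted p alone, without the fold threshold, 5 of the 10 members were higher (Tlr1, Tlr2, Tlr6, Tlr3 and Tlr7) and 3 were lower (Tlr4, Tlr8 and Tlr13). Of all genes tested, 32.5% were higher and 31.5% lower by this rule. Higher and lower members stood in both groups, with 3 higher and 1 lower at the surface and 2 higher and 2 lower in endosomes. The median log2 fold change was 0.24 for the surface and 0.17 for the endosomal members.

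Summed over the 9 receptors, the FPKM was 353 to 389 in control and 386 to 392 in TgAPPsweOCN libraries, while its make-up differed. The 4 surface receptors summed to 126 ± 4.27 (SD, n = 3) in control and 239.6 ± 17.8 in TgAPPsweOCN cells, and the 5 endosomal receptors to 245 ± 13.7 and 149 ± 15.0. The ratio of surface to endosomal receptors was 0.521, 0.520 and 0.498 in the control and 1.92, 1.35 and 1.61 in the TgAPPsweOCN libraries. This difference rested largely on the called members. Tlr1 made up 11.5% ± 0.454 of the receptor sum in control and 39.9% ± 2.78 in TgAPPsweOCN cells, and Tlr13 made up 28.1% ± 1.32 and 7.27% ± 0.987. Without Tlr1 and Tlr13 the ratio was 0.574, 0.628 and 0.573 in control and 0.826, 0.595 and 0.688 in TgAPPsweOCN libraries, which overlapped. These sums follow from the members' own values and were not tested.

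The 3 TgAPPsweOCN libraries differed among themselves in a way that ran through all 10 members. The first library had the highest and the second the lowest normalised count for Tlr1, Tlr2, Tlr6 and Cd14, and the reverse held for Tlr4, Tlr3, Tlr7, Tlr8, Tlr9 and Tlr13, with the remaining library between them each time. Of all tested genes, 27.6% showed the first order and 25.0% the second. Cd14 spread most, with its highest TgAPPsweOCN library at 1.74 times its lowest, and Tlr8 spread least, at 1.13 times. On the second principal component of all genes, which held 6.11% of the variance, the first and second TgAPPsweOCN libraries lay at opposite ends (-26.0 and 24.6). The marker sums also differed between these libraries. The summed FPKM of the 12 myeloid markers was 15514 in the first, 11535 in the second and 13220 in the remaining TgAPPsweOCN library, and that of the 12 stromal markers was 100.3, 177 and 143 in the same order. The myeloid sum followed Lyz2 (8724, 5379 and 6830) and Adgre1 (2100.2, 1462 and 1766), while 7 of the 12 myeloid markers were higher in the second library than in the first and the list's median FPKM was 488, 519 and 490. Their part in the spread of the members was not tested.

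**Figure D4:**
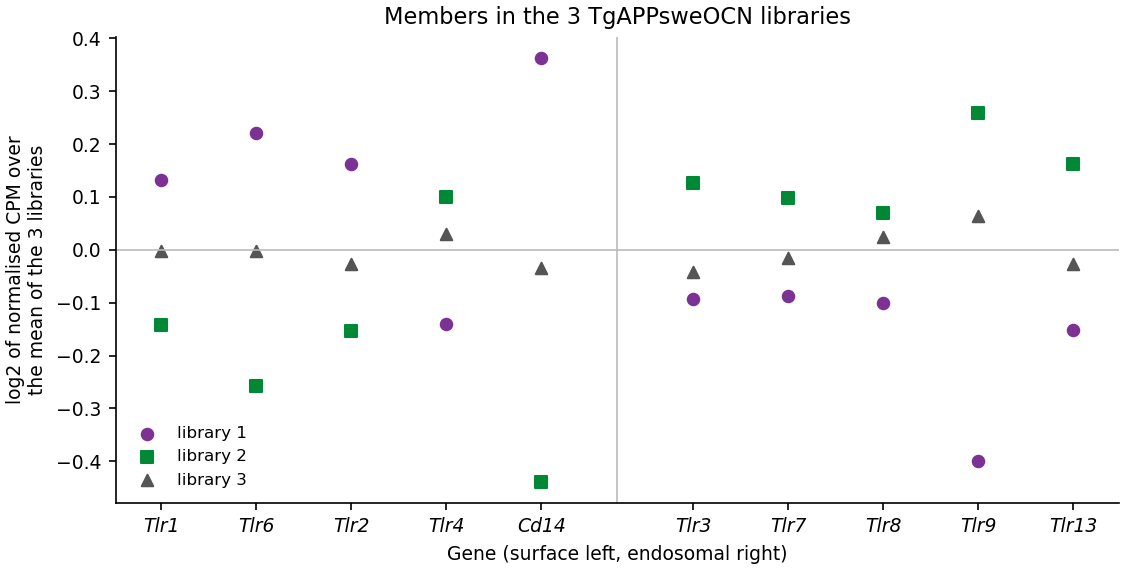
Normalised CPM of each member in the 3 TgAPPsweOCN libraries, as log2 of its ratio to the mean of the 3. Library 1 lies highest for Tlr1, Tlr6, Tlr2 and Cd14 and lowest for the other 6 members, and library 2 lies at the opposite end each time.

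The other receptors of the family were scarce. Tlr5, the receptor of flagellin, had 111, 104 and 82 counts in control and 18, 30 and 19 in TgAPPsweOCN libraries, without overlap. It fell by 2.09 on the log2 scale (standard error 0.240, edgeR adjusted p = 9.07e-05), and with limma on log2(FPKM + 1), where low levels are damped, the log2 fold change of -0.96 was below the fold threshold in size. Tlr11 and Tlr12, sensors of profilin, had at most 2 counts in any library, under the limit of 3 counts taken as detectable, and were not tested.

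Beyond the receptors, 52 genes of the pathway were grouped by role, and all were tested. Of these, 13 were up-regulated and 2 (Ly86 and Pld3) down-regulated, beside 8.90% and 9.20% of all genes. With library totals alone the split was 10 to 5, when 846 of all genes were up- and 1732 down-regulated, and with limma on log2(FPKM + 1) it was 9 to 3. Without the second TgAPPsweOCN library it was 14 to 4, and without the first control library 14 to 1, when Ly86 was no longer called. The genes called down-regulated in addition with library totals alone were Tab1 (log2 fold change -1.10), Sigirr (-1.14) and Dnase2a (-1.02). The median log2 fold change over the 52 was 0.21.

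Of 5 co-receptors and ligand carriers, 3 were up-regulated and 1 was down-regulated. Cd180, a receptor-like protein that modulates responses to lipopolysaccharide, had an FPKM of 106 ± 7.29 (SD, n = 3) in control and 216 ± 19.1 in TgAPPsweOCN cells (log2 fold change 1.24, edgeR adjusted p = 2.30e-06). Its secreted partner, encoded by Ly86, moved the opposite way, from 383, 223 and 272 to 117, 126 and 117 (log2 fold change -1.07, edgeR adjusted p = 0.000621). Cd36, a scavenger receptor that aids the TLR2 and TLR6 pair, had a log2 fold change of 1.05, but of 0.83 with library totals alone, and it was not called without the first control or the first TgAPPsweOCN library. Lbp, which carries lipopolysaccharide to CD14, rose from a low level, 12 to 26 counts in control and 54 to 140 in TgAPPsweOCN libraries. Its log2 fold change was 2.40 (edgeR adjusted p = 0.00078), but with limma on log2(FPKM + 1) it was below the fold threshold.

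Endosomal receptors depend on chaperones and on cleavage in acid compartments. Unc93b1, which escorts them out of the endoplasmic reticulum, had an FPKM of 489 ± 21.7 (SD, n = 3) in control and 615 ± 17.2 in TgAPPsweOCN cells (log2 fold change 0.54, edgeR adjusted p = 9.65e-05, below the fold threshold). Of the 5 chaperone and trafficking genes, Slc15a3, an endolysosomal transporter of peptides and histidine, was the only one called (log2 fold change 2.06, edgeR adjusted p = 2.78e-07). The general chaperone Hsp90b1 (0.44) and its partner in receptor folding Cnpy3 (-0.59) met the adjusted p in opposite directions. Of 9 endolysosomal proteases and nucleases, Rnaset2a, a ribonuclease that cuts RNA into ligands of TLR7 and TLR8, was up-regulated (1.04, and 0.82 with library totals alone, and not called without the second control or the first TgAPPsweOCN library), with fractional counts in all libraries. Rnaset2b, which also had fractional counts throughout, varied widely between control libraries (683, 31.6 and 211 estimated counts, against 844, 909 and 792 in TgAPPsweOCN libraries), and whether reads were divided between them was not tested. Pld3, an exonuclease that degrades nucleic acid ligands, was down-regulated, from an FPKM of 275 ± 13.9 to 114 ± 2.32 (log2 fold change -1.05, edgeR adjusted p = 1.30e-06). By the adjusted p alone, 3 of the 9 were higher, with Lgmn (0.70) and Ctsl (0.44) beside Rnaset2a. Lower were 4, with Dnase2a (-0.81), Ctsb (-0.70) and Ctss (-0.41) beside Pld3. Of all genes tested, 32.5% were higher and 31.5% lower by this rule.

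Of the 6 adaptors, 5 were higher by the adjusted p alone, as were 32.5% of all genes. Ticam2, which links TLR4 to TRIF, rose from an FPKM of 8.12 ± 0.315 (SD, n = 3) to 23.4 ± 0.171 (log2 fold change 1.74, edgeR adjusted p = 1.22e-07). Tirap, which brings MYD88 to TLR2 and TLR4, was called with a log2 fold change of 1.199, and of 0.98 with library totals alone. Myd88 (0.95), Ticam1, which encodes TRIF (0.99), and Pik3ap1 (0.94) met the adjusted p just below the fold threshold. Sarm1 did not pass the test (log2 fold change -0.76, edgeR adjusted p = 0.101), but with library totals alone it was lower by the adjusted p (-0.97, adjusted p = 0.0468).

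Of 14 kinases and ubiquitin ligases, Irak2 and Ikbke were up-regulated and none was down-regulated. IRAK2 prolongs signalling from MYD88, and Irak2 had a log2 fold change of 1.59 (edgeR adjusted p = 8.46e-07). Ikbke encodes a kinase that activates interferon regulatory factors and had a log2 fold change of 1.96 (edgeR adjusted p = 1.01e-06). By the adjusted p alone, without the fold threshold, 6 of the 14 were higher and 4 lower, against 32.5% and 31.5% of all genes tested. The others higher were Tab3 (0.53), Traf3 (0.46), Map3k7 (0.22) and Chuk (0.21), and those lower were Tab1 (-0.89), Ikbkb (-0.34), Irak1 (-0.27) and Irak4 (-0.20). Of 6 transcription factors, Irf7, which drives type I interferon genes downstream of TLR7 and TLR9, rose from an FPKM of 82.9, 34.7 and 49.6 to 508, 594 and 532 (log2 fold change 3.50, standard error 0.282, edgeR adjusted p = 1.13e-05). Irf8 (-0.47), Irf3 (-0.38) and Rela (-0.17) were lower and Irf5 (0.22) was higher by the adjusted p alone, and Nfkb1 (edgeR adjusted p = 0.972) did not pass the test.

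Of 7 negative regulators, 3 were up-regulated. Irak3, which encodes a kinase relative that dampens MYD88 signalling, rose from an FPKM of 15.2 ± 1.29 (SD, n = 3) to 96.5 ± 4.20 (log2 fold change 2.94, edgeR adjusted p = 4.77e-08). Socs1, an inhibitor of cytokine and receptor signalling, had a log2 fold change of 2.85 (edgeR adjusted p = 2.05e-07), and Tnfaip3, a deubiquitinase that limits NF-kB, one of 2.32 (edgeR adjusted p = 4.08e-07). By the adjusted p alone, 5 of the 7 were higher and 1 lower, against 32.5% and 31.5% of all genes tested. Tollip (0.30) and Cyld (0.20) were among the higher, Rnf216 (-0.19) was the lower one, and Sigirr did not pass the test (edgeR adjusted p = 0.0733).

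**Figure D5:**
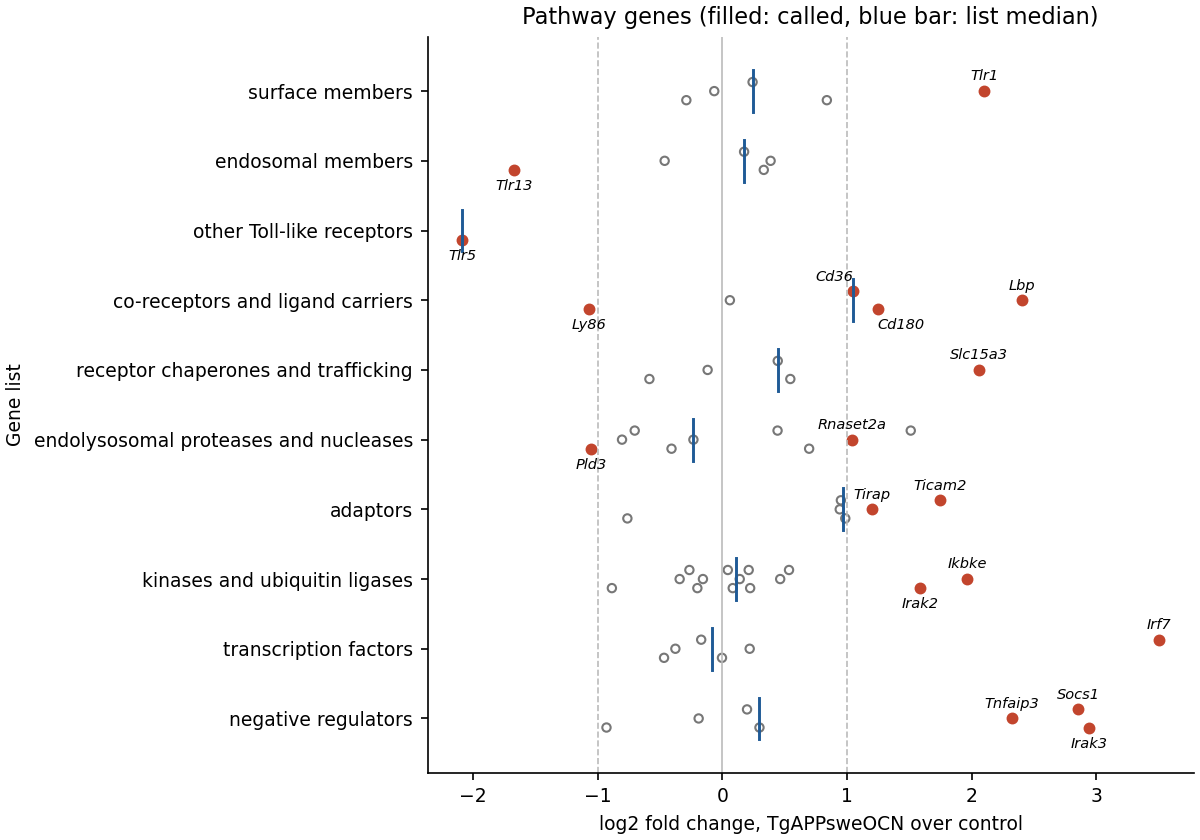
Log2 fold change (TgAPPsweOCN over control) of each tested gene by list, filled and named where called, with a bar at the list median and dashed lines at the fold threshold. The called members Tlr1 (2.10) and Tlr13 (-1.67) differ in direction, and the other called genes run from Tlr5 (-2.09) to Irf7 (3.50).

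The tested genes whose levels followed the called members most closely over the 6 libraries were Hsp90aa1 for Tlr1 and St8sia4 for Tlr13. Hsp90aa1 encodes an inducible cytosolic chaperone, and St8sia4 an enzyme that adds polysialic acid to proteins. Pearson's r of log2 CPM was 0.9999 for each pair, over 6 libraries that share the difference between genotypes, and the log2 fold changes were 1.199 for Hsp90aa1 and -2.67 for St8sia4.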

How the data were processed

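RNA-seq was measured in 6 libraries of sorted cells that the labels name BMSCs. According to the submitters' processing notes, the tools were HISAT2 2.0.4, Bowtie2 2.2.5, RSEM 1.2.12 and DESeq2 1.4.5, with build mm10. The authors deposited estimated counts per gene, which are fractional for 13.3% to 14.4% of genes and, in the same table, FPKM values. A further table of the authors' own comparison (FPKM with a log ratio and p-value) was not used. The test had been planned for raw counts, so the estimates were first rounded to integers. They were fitted with edgeR 4.0.16 under R 4.3.3, using filterByExpr, TMM and the quasi-likelihood test, with genotype as the only term. A gene needed 3 counts to be taken as detected, a limit for counting error only. The biological coefficient of variation was 9.85%. For the median gene, the squared difference between 2 libraries was 2.46 to 5.73 times that of sampling noise within a genotype and 43.1 to 52.1 times across genotypes. Simulated counts, in which 200 genes were changed, served to test the scripts.

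Alternatives were DESeq2 1.42.0, RLE size factors, library totals alone, no filter beyond 1 count, at least 10 counts in every library, a replicate block, limma 3.58.1 on log2(FPKM + 1) and log2(FPKM + 0.1), the adjusted p without the fold threshold and leaving out each library. The text names all members, every called gene of the lists with others needed to account for a list, and for each called member the gene with the highest correlation. The members and lists were chosen with earlier results of these data known. Sequences and transcripts come from the GRCm38 genome, and positions from RefSeq GRCm38.p6. Python 3.11.15, Biopython 1.88 and matplotlib 3.10.9 were used.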

Additional observations from a re-analysis of the deposited data

How the results depend on the processing

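The numbers of surface members up-regulated (1) and down-regulated (0), and of endosomal members up-regulated (0) and down-regulated (1), were the same under every alternative that kept the fold threshold. With the adjusted p alone they were 3, 1, 2 and 2. By that rule 42 of the 53 pathway genes tested, Tlr5 included, passed in place of 16, with 27 higher and 15 lower. Of all genes tested, 32.5% were higher and 31.5% lower by it. Left out 1 library at a time, the log2 fold change ran from 2.03 to 2.17 for Tlr1 and from -1.76 to -1.60 for Tlr13. Cd14 ran from -0.29 to 0.12 and Tlr9 from 0.03 to 0.34, and Tlr9 met the adjusted p without the first TgAPPsweOCN library (0.0463). Tlr9 was -0.0383 with library totals alone, and -0.051 and -0.056 with limma on log2(FPKM + 1) and log2(FPKM + 0.1). Tlr2 missed the adjusted p in 8 of 14 alternatives, Tlr3 and Tlr7 in 3 each (library totals alone and both limma fits), and Tlr1, Tlr4, Tlr6, Tlr8 and Tlr13 in none. With a replicate block by library number, Tlr2 had a log2 fold change of 0.24 (edgeR adjusted p = 0.0701) and no other member changed its side of the threshold. The labels give no shared litter or day, and same-numbered libraries deviated together weakly (correlations of 0.0127, 0.0066 and 0.141), so the block was not taken as a pairing. With 3 libraries a group and no known number of mice, the smaller differences of Tlr2, Tlr3 and Tlr7 and pathway calls near the fold threshold depended on the scaling. Sequencing depth was high for every member, at 585 or more counts a library.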
